A study of Homo sapiens with 2 samples.

Results

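The exonic LSD1 peaks described here are the 2022 of 20110 peaks (10.1%, interval 9.64 to 10.5%) in PC-3M-luc cells whose midpoint lay in an exon of a protein-coding gene and more than 1 kb from every start site of a protein-coding transcript. They fell in 1698 genes, which is 8.42% of the 20163 protein-coding genes. Of these genes, 1440 held 1 exonic peak, 206 held 2, 41 held 3, 8 held 4 and 3 held 5. The position of the midpoint alone chose the peaks, so where they lie against exons and start sites is not a finding. No score, width or sequence was used, but the 1 kb limit leaves few bases of first exons and lets in wide peaks that reach a start site, and the main counts are also given without those peaks.

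Chromatin immunoprecipitation with an antibody against LSD1 (Abcam ab17721) and its input DNA gave 1 sequencing library each. Both libraries came from PC-3M-luc cells with no treatment labelled, a luciferase-marked human prostate carcinoma line of the metastatic PC-3M lineage, labelled as genotype control and grown in EMEM with serum and glutamine. The cells are 1 line, peaks carry no expression, and so neither the prostate identity of the cells nor the activity of a gene could be checked here. With 1 library per arm there is no replicate error and no test. Intervals are 95% intervals, exact except for differences of shares, and cover counting error only, and the sources used here do not give the reads behind a peak.

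LSD1, the product of KDM1A, takes methyl groups off lysine 4 of histone H3 and works in corepressor assemblies such as CoREST and NuRD, which also hold histone deacetylases. It is best known at promoters and enhancers. The exons of a gene differ in kind: internal exons are mostly short and coding, whereas the last exon is long, carries most of the 3′ untranslated region (3′UTR) and ends at the polyadenylation site, past which RNA polymerase II goes on transcribing before it leaves the DNA.

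Exonic peaks came in unlike settings, which the exons below show. The first group holds the short coding exons (at most 200 bp, wholly coding) under the highest-scoring internal-exon peaks, where the peak was wide and also lay over a nearby promoter. The exon is in capitals, with 10 bases of intron on each side in lower case, in the direction of the gene, from the hg19 (GRCh37) reference. JMJD8 encodes a JmjC-domain protein, GMPPB the enzyme that makes GDP-mannose, and ACADVL the mitochondrial dehydrogenase of very long-chain fatty acids. The other exons, under MXRA8, CEP295 and DHX30, are the same kind of exon under the highest-scoring peaks whose edges also lay more than 1 kb from every coding start site. They were added after the values were seen. MXRA8 encodes a cell adhesion protein, CEP295 a centriole protein and DHX30 an RNA helicase.
JMJD8 exon 8 of 9, chr16:732943-733097: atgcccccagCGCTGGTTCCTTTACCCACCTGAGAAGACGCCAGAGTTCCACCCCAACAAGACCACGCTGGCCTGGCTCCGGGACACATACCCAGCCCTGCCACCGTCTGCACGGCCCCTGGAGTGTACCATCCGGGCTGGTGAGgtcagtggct
GMPPB exon 8 of 9, chr3:49759388-49759590: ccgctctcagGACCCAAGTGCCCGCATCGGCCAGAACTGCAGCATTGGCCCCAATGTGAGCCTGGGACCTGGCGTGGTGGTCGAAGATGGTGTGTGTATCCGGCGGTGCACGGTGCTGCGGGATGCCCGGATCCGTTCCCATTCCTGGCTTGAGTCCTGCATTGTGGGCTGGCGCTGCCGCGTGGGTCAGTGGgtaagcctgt
ACADVL exon 8 of 20, chr17:7125261-7125410: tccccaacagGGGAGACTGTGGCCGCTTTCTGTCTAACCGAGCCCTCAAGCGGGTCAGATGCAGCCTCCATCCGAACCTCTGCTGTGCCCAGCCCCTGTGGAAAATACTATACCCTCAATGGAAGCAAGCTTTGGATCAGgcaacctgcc
MXRA8 exon 9 of 10, chr1:1289218-1289318: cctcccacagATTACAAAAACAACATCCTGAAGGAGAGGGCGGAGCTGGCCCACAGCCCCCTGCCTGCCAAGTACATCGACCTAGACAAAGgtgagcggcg
CEP295 exon 26 of 30, chr11:93462590-93462706: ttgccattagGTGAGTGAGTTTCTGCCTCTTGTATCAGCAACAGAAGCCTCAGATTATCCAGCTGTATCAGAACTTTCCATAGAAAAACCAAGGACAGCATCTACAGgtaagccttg
DHX30 exon 19 of 22, chr3:47890672-47890849: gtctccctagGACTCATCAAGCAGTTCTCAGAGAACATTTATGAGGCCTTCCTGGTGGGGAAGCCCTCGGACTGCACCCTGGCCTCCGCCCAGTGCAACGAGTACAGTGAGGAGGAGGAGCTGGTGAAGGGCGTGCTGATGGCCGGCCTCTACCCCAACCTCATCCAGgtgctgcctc
All these exons are far narrower than the peaks over them. The JMJD8 exon of 135 bp (64.4% GC) lay under a peak of 8614 bp, and the MXRA8 exon of 81 bp (54.3% GC) lay under a peak of 5228 bp. The exon under the midpoint is therefore a coordinate of the peak and not a boundary of the signal.

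Last exons held more than any other class. Of the 2022 exonic peaks, 1065 (52.7%, interval 50.5 to 54.9%) had their midpoint in the last exon of the canonical transcript, the 1 transcript per gene that the annotation names as representative. Internal exons held 388 (19.2%, interval 17.5 to 21%), first exons 9 (0.445%), and genes with a single exon 35 (1.73%). The remaining 525 (26%, interval 24.1 to 27.9%) lay in exons of other isoforms, outside the canonical exons. Isoforms of any type counted, coding or not. Such midpoints lie in an intron of the canonical transcript or beyond one of its ends. The exons under them had a median length of 1412 bp, against 174 bp for internal exons. By part of the transcript, 918 midpoints (45.4%) lay in 3′UTR, 573 (28.3%) in coding sequence and 6 in 5′UTR. Within last exons 885 of 1065 midpoints (83.1%) were in 3′UTR and 180 (16.9%) in coding sequence, and within internal exons 372 of 388 (95.9%) were in coding sequence.

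Last exons also held more per base than internal exons. Per Mb of sequence more than 1 kb from every coding start site, exons held 22.4 midpoints (interval 21.5 to 23.4), against 3.44 in introns (3.33 to 3.55) and 2.65 between genes (2.57 to 2.73). Last exons held 28.4 per Mb (26.7 to 30.2) and internal exons 17.6 (15.9 to 19.4), a ratio of 1.62 (interval 1.44 to 1.82). First exons and single-exon genes, at 34.3 and 34.5 per Mb, had few bases this far from a start site and wide intervals, 15.7 to 65.1 and 24 to 48. Sequence of the 3′UTR held 27.9 midpoints per Mb (26.1 to 29.7) and coding sequence 20.9 (19.2 to 22.7), a ratio of 1.33 (1.2 to 1.48).

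The density gap between exon and intron was smaller at matched start-site distance and base composition. The plain ratio of exon to intron was 6.52. It was 4.5 when exons were set against introns at the same distance from a coding start site, 3.3 at the same GC content, and 2.62 (interval 2.51 to 2.74, from the exonic count) with both. On that matched scale last exons stood at 3.92 (3.69 to 4.16), exons of other isoforms at 2.47 (2.26 to 2.69), single-exon genes at 1.9 (1.33 to 2.65), internal exons at 1.49 (1.35 to 1.65) and first exons at 0.926 (0.423 to 1.76). With exonic and intronic peaks both limited to those whose edges lay more than 1 kb from every coding start site, the values were 4.04 for last exons, 2.57 for other isoforms, 1.51 for internal exons, 1.25 for single-exon genes and 1.22 for first exons. The interval of the single-exon genes then ran from 0.573 to 2.38 and took in 1.

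**Figure D1:**
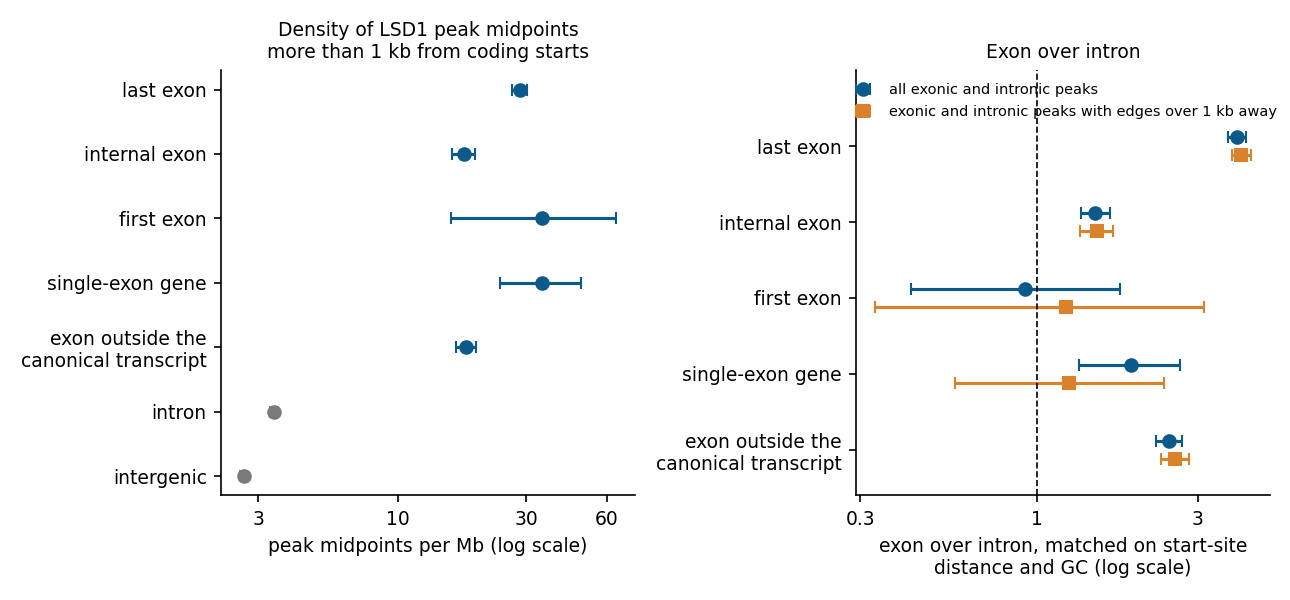
Left, LSD1 peak midpoints per Mb (log axis) by class of exon (blue) and in introns and intergenic sequence (grey), with exact 95% Poisson intervals. Right, exon over intron (log axis) at matched distance from coding start sites and GC content, for all peaks (circles) and for peaks with edges over 1 kb away (squares); last exons stand highest, at 3.92 and 4.04.

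Introns next to exons were not empty. Intronic sequence within 100 bp of an exon held 13.4 midpoints per Mb (12.1 to 14.7), which fell with distance through 9.53 at 100 to 250 bp, 6.67 at 250 to 500 bp and 5.41 at 500 to 1000 bp, to 1.27 beyond 5000 bp. On the matched scale the nearest 100 bp stood at 1.73 (1.58 to 1.9) relative to all introns, and internal exons at 1.49 (1.35 to 1.65). Internal-exon peaks had a median width of 1429 bp over exons of 174 bp, and the median one spanned 2 canonical exons. Last-exon peaks had a median width of 1831 bp over exons of 2555 bp.

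Next-to-last exons held more midpoints per base than the internal exons before them. Counted per canonical exon, so that a midpoint in exons of overlapping genes counts for each, next-to-last exons held 34.7 midpoints per Mb (28 to 42.7), 2.2 times the earlier internal exons (1.72 to 2.79). Second exons held 13.5, exons 3 to 5 held 15.5, exons 6 to 10 held 19.4 and later ones 14.1 per Mb, with overlapping intervals. These densities were not matched on GC content, start-site distance or distance from the gene end. Longer last exons held a midpoint more often, in 1.18% of those up to 500 bp and in 9.61% of those over 4000 bp, while their density was lower, at 44.6 (32.9 to 59.2) for the shortest and 18.9 per Mb (16.8 to 21.1) for the longest.

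Within their exon, last-exon midpoints lay somewhat nearer to the end of the gene than its middle. They lay a median of 951 bp (890 to 1018) before the end of the canonical transcript, against 1272.5 bp (1189 to 1333.5) for the middle of the eligible bases of the same exons. In the median exon 43.3% of eligible bases (40.7 to 45.7%) were nearer to the end than the midpoint. Within 500 bp of the end lay 312 of 1065 midpoints (29.3%, interval 26.6 to 32.1%), against 27.2% of eligible bases, averaged over the same exons. The peaks themselves covered the end in 535 cases (50.2%, interval 47.2 to 53.3%). Around gene ends, with all peaks more than 1 kb from coding start sites counted whether exonic or not, density was 41.8 per Mb in the last 1000 bp of the gene and 58 in the first 1000 bp past the end, against 15 at 4000 to 5000 bp before it. It was highest at 64.3 per Mb (59.3 to 69.7), 500 to 1000 bp past the end, where midpoints are past the last canonical exon. Windows of neighbouring genes overlap, and a peak can count for more than 1 gene.

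This zone was higher in genes that also had an LSD1 peak at their promoter. A promoter peak, with its midpoint within 1 kb of a coding start site of the gene, was present in 10533 of 20163 genes (52.2%). In the bin 500 to 1000 bp past the end, genes with a promoter peak held 103 midpoints per Mb (94.6 to 113) and genes without one 22.1 (18 to 26.9), a ratio of 4.68 (3.77 to 5.86); this bin was picked as the highest. Over the first 1000 bp past the end they held 90.8 and 22.3 per Mb, a ratio of 4.07 (3.49 to 4.77). In the last 1000 bp before the end the values were 55.7 and 25.4 per Mb, a ratio of 2.2 (1.87 to 2.58), and at 4000 to 5000 bp before the end 18.6 and 11 per Mb, a ratio of 1.69 (1.3 to 2.2). In genes with a promoter peak the first 1000 bp past the end held 1.63 times (1.46 to 1.81) the density of the last 1000 bp before it. In genes without one that ratio was 0.879 (0.721 to 1.07), and 1.02 (0.798 to 1.3) with peak edges more than 1 kb from coding starts. Last exons followed the same split, with 36.5 per Mb in genes with a promoter peak and 16.9 in genes without, a ratio of 2.16 (1.88 to 2.5), and internal exons differed less, at a ratio of 1.32 (1.07 to 1.62). Gene activity, gene density and GC content were not compared between these genes, and their part in the ratios was not tested.

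**Figure D2:**
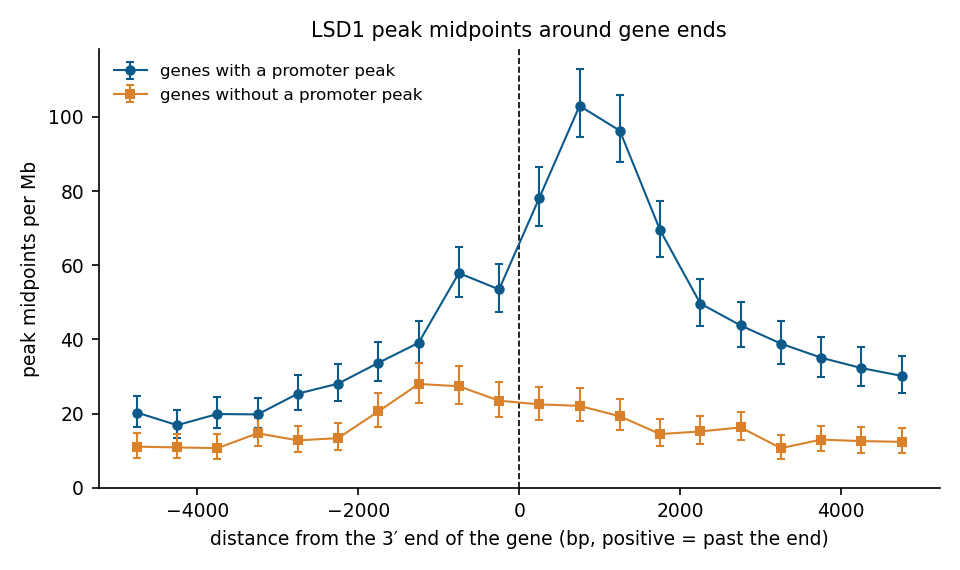
LSD1 peak midpoints per Mb in bins of 500 bp around the 3′ end of genes with a promoter peak (blue circles) and without (orange squares), with exact 95% Poisson intervals; bases within 1 kb of a coding start site are left out. Genes with a promoter peak reach 103 per Mb at 500 to 1000 bp past the end, where genes without hold 22.1.

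Genes with an exonic peak also had a promoter peak more often than genes without. A promoter peak was present in 1230 of 1698 genes with an exonic peak (72.4%, interval 70.2 to 74.6%), in 1430 of 2118 genes with an intronic peak only (67.5%) and in 7873 of 16347 genes with neither (48.2%). The difference was 4.92 percentage points (1.99 to 7.82) from the intronic group and 24.3 points (22 to 26.5) from the rest. By class, the share was 76.5% for genes with a last-exon peak, 74.8% for exons of other isoforms, 64.8% for internal exons and 30.3% for single-exon genes. A wide exonic peak that itself covers the gene's start site takes the place of a promoter peak in this count. Without the peaks that cover a coding start site the share was 77.4%. The intronic group was not filtered in this way, so its 67.5% is no like comparison for that value. The exonic share was lower at higher score limits, as given below with the alternatives of processing.

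Exonic peaks were wider and scored higher than intronic ones and scored lower than promoter peaks. The score was set by the authors' peak caller and serves here to rank and describe peaks of this list. Median width was 1707 bp (1656 to 1762) for exonic peaks, against 1381 bp in introns, 1396 bp between genes and 1828 bp at promoters, and median score was 122 (112 to 129.6), against 86.7, 119.6 and 389. Among exonic peaks the score ran from 50 to 3226.07 and the width from 464 to 20737 bp. A score under 100 was held by 867 exonic peaks (42.9%) and by 57% of intronic ones, a difference of -14.1 percentage points (-16.7 to -11.4). Among intergenic peaks the share was also 42.9%. The median score was 139 in last exons (127 to 152), 101 in internal exons (89.6 to 111), 105 in exons of other isoforms and 1009 in single-exon genes (152 to 1394).

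The top of the score range belonged to wide peaks that reached a promoter. A coding start site lay under 226 exonic peaks (11.2%, interval 9.84 to 12.6%), in 123 of them that of the same gene alone, in 47 that of the same gene and another, and in 56 that of another gene only. These 226 had a median width of 6194 bp and a median score of 1307, and 14.2% of them scored at least 3100. The other 1796 had a median width of 1550 bp and a median score of 104, and 0.668% scored at least 3100. Of all exonic peaks, 1664 (82.3%) had both edges more than 1 kb from every coding start site. A further feature of the rule is that it counts starts of coding transcripts only: 518 exonic peaks (25.6%) lay within 1 kb of the start of a non-coding transcript of a coding gene.

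**Figure D3:**
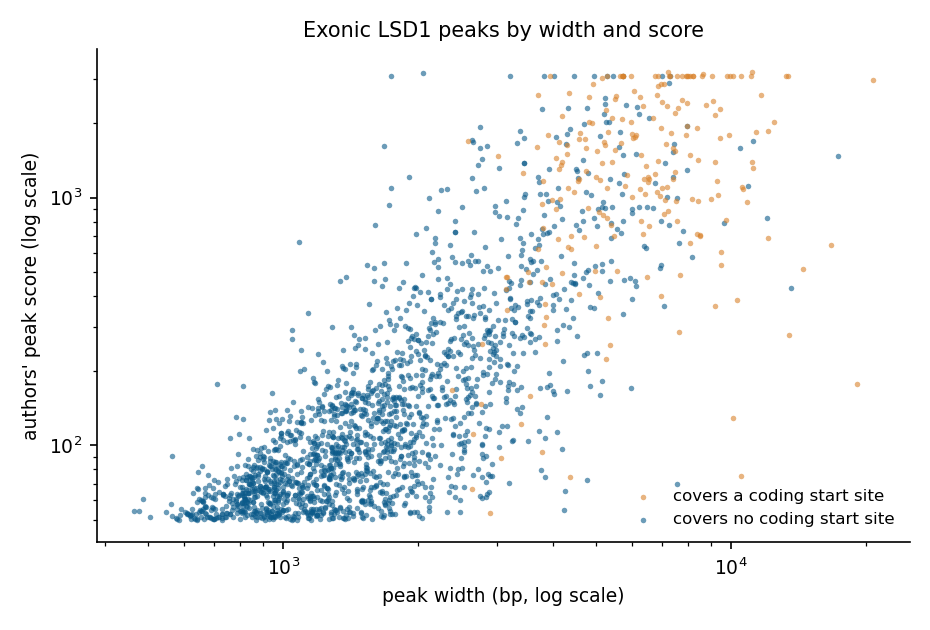
Width (bp, log axis) and the authors' score (log axis) of the 2022 exonic peaks; orange points cover a start site of a coding transcript and blue points do not. The 226 orange points lie mostly at the upper right, with a median width of 6194 bp and a median score of 1307.

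Among last-exon peaks, the highest score was at CD63, which encodes a tetraspanin of endosomes and exosomes, with 3226.07 for a peak of 11132 bp centred 101 bp before the gene end and also over the starts of CD63 and RDH5. TMEM107, a gene of the ciliary transition zone, followed with 3196.17 for a peak of 2055 bp that covered no coding start. CALR, the endoplasmic reticulum chaperone calreticulin, AHNAK2, a giant scaffold protein, TMEM250 and IER2, an immediate early gene, each had 3100, a value that 206 peaks of the list share and that does not rank them. Those 4 peaks were 13433, 11078, 9777 and 8230 bp wide, and each covered a coding start site. With edges more than 1 kb from coding starts, the leading last-exon peaks after TMEM107 included ONECUT3, a homeobox transcription factor, PRSS12, the protease neurotrypsin, GGCX, the vitamin K-dependent carboxylase, and ST3GAL2, a sialyltransferase, each at 3100. The PRSS12 peak was centred 483 bp before the gene end, and the ONECUT3, GGCX and ST3GAL2 peaks 2834, 2619 and 4455 bp before it. PRSS12 had no promoter peak, and its exonic peak of 5451 bp lay 72482 bp from the nearest coding start.

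Among internal-exon peaks, the top scores of 3100 were at C1QTNF8, at an unnamed gene model under a peak over the starts of EXOSC4 and GPAA1, at ZBTB45, at JMJD8, at SPNS2, an exporter of sphingosine 1-phosphate, and at GMPPB. All 6 covered at least 1 coding start site and were 7784 to 13254 bp wide. With edges more than 1 kb away, MXRA8 led with 2396.01 in exon 9 of 10, followed by PRRC2A, an RNA-binding protein, with 1487.59, CEP295 with 1375.72, DHX30 with 1374.83, SLC5A2, the renal glucose transporter, with 1037.03, and PELO, a ribosome rescue factor, with 933.88. The DHX30 midpoint in exon 19 of 22 and the CEP295 midpoint in exon 26 of 30 lay 908 and 887 bp before the end of their genes. The exons of MXRA8, CEP295 and DHX30 are printed above.

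First-exon peaks numbered 9 and were led by LRFN4, a synaptic adhesion gene, with 1037.39, GPATCH4 with 602.2 and KLF9, a Krüppel-like transcription factor, with 458.18, then MYO15B with 280.42, MFHAS1 with 224.63 and TSC22D1 with 144.98. The LRFN4 and KLF9 peaks covered the start of the gene itself. The GPATCH4 midpoint lay 2 bp from the start of its canonical transcript, which the annotation does not type as protein-coding on this build and which the 1 kb rule therefore passed over; no other of the 2022 exonic peaks lay within 1 kb of such a start of its own gene. Single-exon genes were led by SOX12, a SOX transcription factor, and IER5L, both at 3100, CLDN4, a tight junction claudin, at 2585.58, FZD8, a Wnt receptor, at 2368.17, IRF2BPL at 2013.28 and SEPHS2, a selenophosphate synthetase, at 1722.3. Each of these 6 covered the start of its own gene.

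In exons of other isoforms LCN2, a secreted iron-binding lipocalin, led with 3206.76, followed by UBXN11 with 3155.64, whose peak covered the start of SH3BGRL3, and, each at 3100, by genes that included IMPDH2, the enzyme of guanine nucleotide synthesis, EIF5, a translation initiation factor, and AARS1, alanyl-tRNA synthetase. The peaks of these 5 genes each covered a coding start site. With edges more than 1 kb away, MRNIP, VMP1, an autophagy gene, ATN1, a corepressor, and CLASP1, a microtubule-binding protein, each had 3100, FCRLB had 1852.1 and an unnamed gene model on chromosome 6 had 1712.11.

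Some genes held a run of exonic peaks. DYNC1H1, the heavy chain of cytoplasmic dynein, held 5 exonic peaks with scores of 181.25, 292.12, 164.96, 733.71 and 825.04 in the order of the gene, the last of them 12048 bp wide in the last of 78 exons. DPP9, a dipeptidyl peptidase, held 5 with scores of 51.56 to 323.88, and IARS1, isoleucyl-tRNA synthetase, held 5 with scores of 74.8 to 233.49, all in exons of other isoforms. AHNAK2 held 4, all in its last exon of 17547 bp, with 3100 at the end of the gene and 204.44, 143.35 and 56.99 upstream. AARS1 held 4, with 3100, 134.35, 104.92 and 98.07. The widest exonic peaks were at CCDC78 (20737 bp, over the starts of 4 coding genes), TRMT61A (19156 bp) and ZNF469 (17301 bp), and the narrowest at AHNAK (464 bp), ERC1 (477 bp) and PCID2 (485 bp). At the 1 kb limit, CAD and TRAPPC5, each 1003 bp from a start site, and SYT5, at 1005 bp, were just inside it, with scores of 60.45, 886.69 and 1698.14. Exonic peaks of EN1 at 997 bp and of GJA10 and PI3 at 992 bp were just outside it, with scores of 69.44, 186.37 and 693.24.

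The machinery that LSD1 works in held exonic peaks of its own. Of 26 genes of the CoREST, NuRD and CtBP complexes, 11 had an exonic peak (42.3%, interval 23.4 to 63.1%), against 8.42% of all protein-coding genes, and 24 had a promoter peak (92.3%, against 52.2%). All 11 also had a promoter peak. The 12 exonic peaks were narrow and low, with scores of 51.35 to 221.99, a median of 78.5 and a median width of 1240.5 bp, and none covered a coding start site. MBD3, a NuRD subunit, had the highest score, 221.99, in the 3′UTR of its last exon, and GSE1, a partner of CoREST, had 185.09 in its last exon of 16 and 74.25 in another isoform. HMG20B, a CoREST subunit, had 125.19 in its last exon, centred 38 bp before the gene end, and RBBP4, a histone chaperone of NuRD, had 108.93. In all, 8 of the 12 lay in last exons. With a score of at least 100, 4 of the 26 genes remained (15.4%, interval 4.36 to 34.9%), and the interval took in the 5.27% of all protein-coding genes.

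Ribosomal protein genes came next by share. Of 87 RPL and RPS genes, 32 had one (36.8%, interval 26.7 to 47.8%), and 48 had a promoter peak (55.2%). Their 34 exonic peaks had a median score of 985 and a median width of 4018 bp, and 21 lay in exons of other isoforms, 8 in last exons and 5 in internal exons. RPS28 had 3100 and RPL18 had 2591.08, both under peaks that covered a coding start site. These genes are short, and 17 of the 34 peaks covered a coding start site. Without those peaks 16 of the 87 genes held an exonic peak (18.4%, interval 10.9 to 28.1%), against 7.45% of all protein-coding genes. With both edges more than 1 kb away 14 did (16.1%, interval 9.09 to 25.5%), against 6.92%. Among the 14, RPS23 had 1675.41, RPL22L1 1383.16 and RPS19 1087.39, each in the last exon. When any base of a peak over an exonic base more than 1 kb from coding starts counted, 75 of the 87 genes did, against 21.7% of all protein-coding genes.

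Genes of messenger RNA processing and of cell adhesion followed. Of 36 SR protein and hnRNP genes, which regulate splicing, 9 had an exonic peak (25%, interval 12.1 to 42.2%), with 7 of 11 peaks in last exons. SRSF2 had 2487.11 under a peak over the starts of 4 coding genes, and HNRNPDL had 1657.06. HNRNPF had 1300.7 under a peak centred 42 bp before the gene end. Of 25 focal adhesion genes, 7 had one (28%, interval 12.1 to 49.4%). With edges more than 1 kb away 4 had one (16%, interval 4.54 to 36.1%), and the interval took in the 6.92% of all protein-coding genes. SR protein and hnRNP genes then had 7 of 36 (19.4%, interval 8.19 to 36%). ITGA3, the integrin alpha chain that binds laminin, had 3100 for a peak of 7010 bp centred 86 bp before the gene end, and its promoter peak scored 81.46. ILK, a kinase-like adaptor of integrins, had 1643.73 under a peak over the start of another gene, and SRC, the tyrosine kinase, had 1216.09 in its last exon, 175.03 and 53.1. FLNA, the actin crosslinker filamin A, had 915.71 in exon 46 of 48. PXN, paxillin, had 773.36 in an exon of another isoform, 353.59 in its last exon and 101.35 in exon 7 of 15.

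Immediate early genes had exonic peaks at 4 of 25 members (16%, interval 4.54 to 36.1%): IER2 with 3100, ZFP36, which promotes decay of messenger RNA, with 688.89, KLF6 with 548.05 and 64.48, and FOSL2 with 174.55 and 93.56. Of 28 genes of epithelial-mesenchymal transition and invasion, 5 had one (17.9%, interval 6.06 to 36.9%), among them KRT18, a keratin of simple epithelia, with 2687.24 under a peak over its own start, ITGB4, the integrin of hemidesmosomes, with 128.14 and 67.46, ESRP2, an epithelial splicing regulator, with 107.54, and ZEB2, a repressor of E-cadherin, with 67.15. Both intervals took in 8.42%. Per Mb of eligible exonic bases, immediate early genes held 99.3 midpoints (36.4 to 216), against 22.4 over all genes. Genes of epithelial-mesenchymal transition and invasion held 45.5 (16.7 to 99.1), an interval that took in 22.4.

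By share of genes, the remaining families were near or below all genes. Such shares, here and above, do not allow for the number of eligible exonic bases. Per Mb of these bases, ribosomal protein genes held 168 midpoints (116 to 234) and SR protein and hnRNP genes 66.5 (33.2 to 119). Genes of LSD1 complexes held 60.9 (31.4 to 106) and focal adhesion genes 57.9 (31.6 to 97.1). Peaks over coding start sites are included. Among the remaining families, histone genes held 71.2 (14.7 to 208) and keratin genes 30.8 (6.35 to 90), against 22.4 over all genes. ZNF genes held 21 and collagen and laminin genes 14.1. Protocadherin and HOX genes held 0, with intervals up to 16.1 and 57.9. ZNF genes had an exonic peak at 52 of 508 members (10.2%, interval 7.74 to 13.2%). Their 57 peaks had a median score of 81.2, and 48 of them lay in the last exon, the exon that holds the array of zinc fingers in most of these genes, with 20 midpoints in its coding part and 28 in its 3′UTR. ZNF469 led with 1478.18, followed by ZNF740 with 1338.92 and ZNF814 with 964.75. Collagen and laminin genes had 6 of 56 (10.7%), led by LAMA5 with 643.95, then COL8A2 with 168.24 and COL4A4 with 88.22. Keratin genes had 3 of 55 (5.45%), KRT18, KRT7 with 94.29 and KRT8 with 92.41, and histone genes 3 of 78 (3.85%), H3-3B with 1736.9, H2AX with 1676.67 and H1-10 with 1495.62. Protocadherin cluster genes had 0 of 53, which allows up to 6.72%, and HOX genes 0 of 39, which allows up to 9.03%. A gene counted as having no exonic peak may still bind LSD1 below the level at which peaks were listed.

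**Figure D4:**
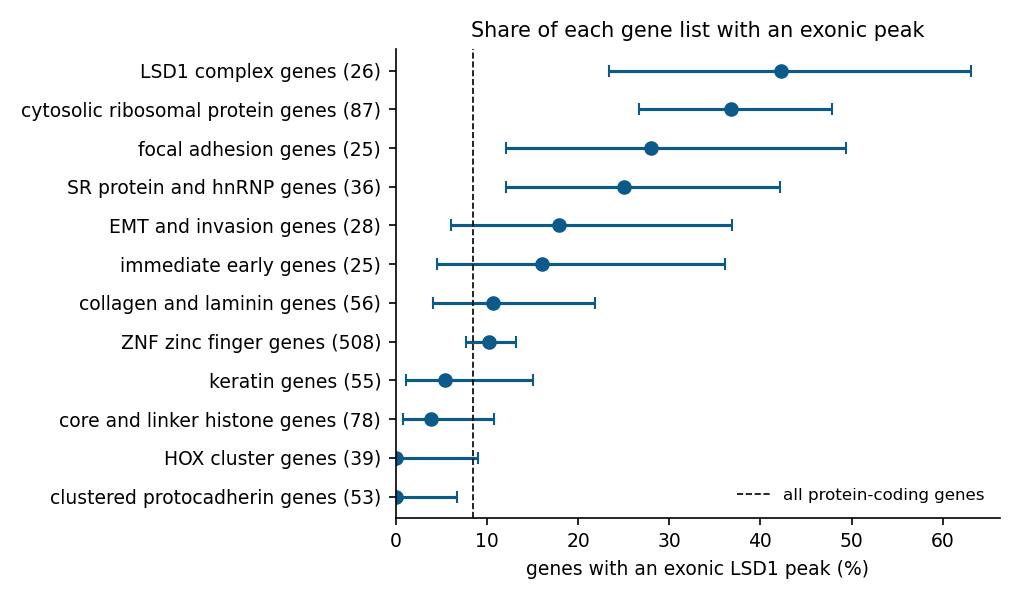
Share of each gene list with an exonic LSD1 peak (%), with exact 95% binomial intervals and the number of genes in parentheses; the dashed line marks all protein-coding genes (8.42%). Genes of LSD1 complexes (42.3%) and of ribosomal proteins (36.8%) stand highest, and HOX and protocadherin genes are at 0.

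Small RNA genes lay under some of the highest-scoring exonic peaks. Of the 2022, 58 (2.87%, interval 2.19 to 3.69%) overlapped an annotated small RNA gene: 33 a microRNA, 20 a small nucleolar RNA, 4 a small nuclear RNA and 2 another kind, with 1 peak over genes of more than one kind. The overlap was not counted for intronic, intergenic or promoter peaks, so whether it is particular to exonic peaks is not known. These 58 had a median score of 1245 (659 to 1587) and a median width of 5062 bp, against 116 (109 to 126) and 1685 bp for the other 1964. Wider peaks overlap more features, and among peaks with edges more than 1 kb from coding starts the median scores were 421 (95.2 to 1375) for 27 and 102 (96.5 to 107) for 1637. Of the 11 peaks at 3100 or above in that group, 3 covered a small RNA gene: TMEM107 over SNORD118, the U8 RNA of ribosomal RNA processing, VMP1 over MIR21, and CLASP1 over RNU4ATAC, an RNA of the minor spliceosome. The TMEM107 and CLASP1 peaks were 2055 and 1737 bp wide. Others were NCL, nucleolin, with 2024.83 over SNORA75 and SNORD20, CEP295 over SNORA25 and SNORA32, EGFL7 with 507.87 over MIR126, and IMPDH2 over MIR191 and MIR425. The annotated starts of these small RNA genes are not coding and were not part of the 1 kb rule. Whether a small RNA has a start site apart from its host gene was not examined.

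Of the 35 microRNA genes under exonic peaks, 29 were matched in RefSeq (table of GRCh38.p14), and the mature sequences of 3 well-studied ones, chosen after the values were seen, show which microRNAs these are. The seed, bases 2 to 8, is in capitals. Their seeds all differ.
hsa-miR-21-5p, under the VMP1 peak: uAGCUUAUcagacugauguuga
hsa-miR-191-3p, under the IMPDH2 peak: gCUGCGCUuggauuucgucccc
hsa-miR-191-5p, under the IMPDH2 peak: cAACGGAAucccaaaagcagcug
hsa-miR-126-3p, under the EGFL7 peak: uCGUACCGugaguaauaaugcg
hsa-miR-126-5p, under the EGFL7 peak: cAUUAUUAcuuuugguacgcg

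The sequence under exonic peaks was richer in GC than eligible exons, and internal-exon peaks were richer than last-exon peaks. The 200 bp around the midpoint had a median GC content of 56% (55 to 56.5%), against 52.5% at intronic, 52% at intergenic and 67% at promoter peaks, while the median of eligible exonic bases was 44% and of eligible intronic bases 40%. Internal-exon peaks had 61.5% (60.5 to 62.5%) and last-exon peaks 53% (52.5 to 53.5%). The ratio of observed to expected CpG was 0.281 (0.27 to 0.292) in exonic peaks. It was 0.242 in intronic, 0.281 in intergenic and 0.805 in promoter peaks. Among exonic peaks it was 0.405 in internal and 0.252 in last exons. Density rose with GC content in every class given here. Last exons held 7.35 midpoints per Mb where GC was under 40%, 51.5 at 50 to 60% and 103 at 70% or more, and internal exons held 0.69, 21.5 and 88.1. At 70% or more the intervals of the 2 classes overlapped.

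Exonic peaks differed from intronic peaks in TGANTCA, searched as the AP-1 element of FOS and JUN dimers, with any base counted at N. It was found on either strand in 102 of 2022 exonic windows of 200 bp (5.04%, interval 4.13 to 6.09%) and in 416 of 3971 intronic ones (10.5%, interval 9.54 to 11.5%), a difference of -5.43 percentage points (-6.75 to -4.04). Of all eligible bases, 5.59% of exonic and 6.12% of intronic windows hold it. Against windows of the same region and GC, exonic peaks stood at 1.17-fold (0.95 to 1.41) and intronic peaks at 2.09-fold (1.89 to 2.3). Within exons, last-exon peaks had 6.01% and 1.32-fold (1.01 to 1.68), and internal-exon peaks 2.84% and 0.935-fold (0.467 to 1.67). The windows below show the element in capitals, in the direction of the gene, at the highest-scoring exonic peaks that hold it and have edges more than 1 kb from coding starts. They were chosen after the values were seen. EIF5 and MAN1B1, a mannosidase of the endoplasmic reticulum, and DDX51, an RNA helicase, hold it in the 3′UTR, and C14orf93 in an exon of another isoform.
EIF5, chr14:103810440-103810468: agtacagatctTGATTCAtagtgacattc
C14orf93, chr14:23476275-23476303: ctctgcctagcTGAGTCAgcccgtgcggt
MAN1B1, chr9:140003283-140003311: gacacgaatcaTGACTCAcgattgctgaa
DDX51, chr12:132621857-132621885: agagcagactgTGAATCAcagatgagaca
The scores of these peaks were 1641.29, 1000.09, 961.39 and 886.37, in the order of the lines.

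The other motifs were near the level that GC content gives. The ETS element CCGGAAG was in 1.78% of exonic windows and 1.1% of eligible exonic windows, and stood at 0.892-fold at matched GC (interval 0.625 to 1.24). A part of the NRF1 element, CGCATGC, was in 1.14% (eligible 0.664%) and stood at 1.05-fold. A part of the CTCF core, AGGGGGC, was in 6.38% (eligible 3.19%) and stood at 1.02-fold. The E-box CACGTG was in 4.75% (eligible 2.58%) and stood at 1.18-fold. The element of GATA factors, with the letters AGATAA, was in 5.14% (eligible 11.5%) and stood at 0.853-fold. The forkhead element TGTTTAC was in 1.43% (eligible 2.9%) and stood at 0.898-fold. All 6 intervals took in 1. The GC box GGGCGG, bound by SP and KLF factors, was in 14.4% (eligible 5.32%) and stood at 1.19-fold (1.06 to 1.34). In introns ETS stood at 1.57-fold (1.21 to 2.02), CTCF at 1.31-fold (1.15 to 1.49) and forkhead at 1.44-fold (1.17 to 1.74). The intronic E-box stood at 1.4-fold (1.2 to 1.62) and the intronic GC box at 1.23-fold (1.12 to 1.34). The intronic intervals of NRF1 and GATA took in 1. The windows below are those of the highest-scoring exonic peak with each of 3 motifs. The capitals read as the reverse complement where the match is on the other strand, as in ZBTB45. A match names letters and not a bound factor.
AP-1 in TRIM47, chr17:73871938-73871966: cgcccccccgaTGACTCAccctctgccag
NRF1 part in SOX12, chr20:308039-308067: cccccttcgtgCGCATGCttaatgcttct
CTCF core part in ZBTB45, chr19:59027865-59027893: ctcccaccacgGCCCCCTcaggcacccct
TRIM47, a ubiquitin ligase, SOX12 and ZBTB45 carried these under peaks of 6879 to 9048 bp that covered a coding start site, with scores of 2815.49, 3100 and 3100.

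**Figure D5:**
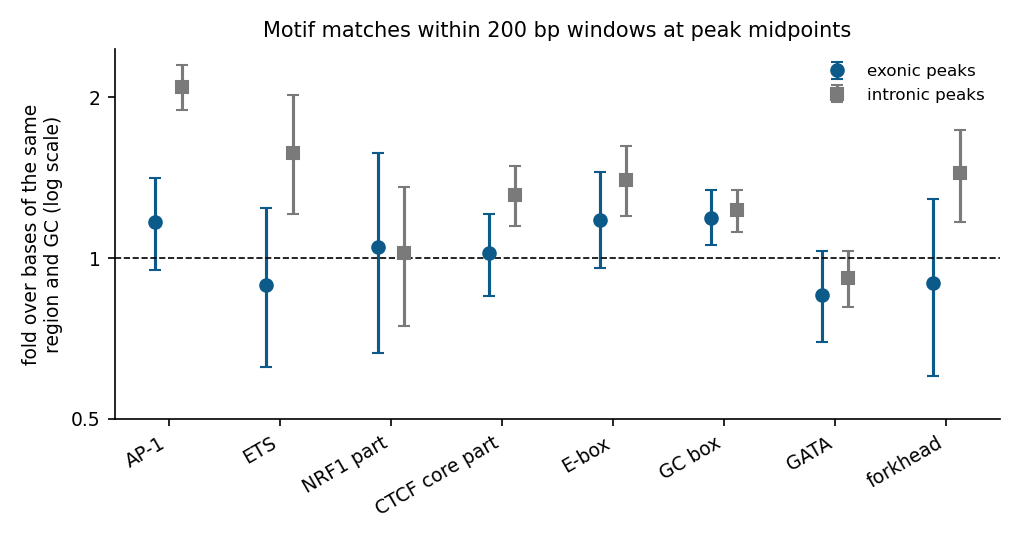
Fold of windows with each motif over windows at all eligible bases of the same region and GC content (log axis), for exonic peaks (blue circles) and intronic peaks (grey squares), with exact 95% Poisson intervals on the number of peaks. AP-1 is at 1.17-fold in exonic and 2.09-fold in intronic peaks.

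Across chromosomes, exonic peaks per Mb of eligible exon were highest on chromosome 19, at 56 (49.4 to 63.2, 265 peaks), followed by chromosomes 16 at 48.9 and 17 at 36.3. They were lowest on chromosome 13, at 5.51 (2.64 to 10.1, 10 peaks), and chromosome Y had none in 0.12 Mb. These values were not matched on GC content, with which density rose, or on distance from start sites. Copy number differs along chromosomes in lines derived from PC-3 and was not analysed here. The part of any of these in the ranking was not tested.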

How the data were processed

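LSD1 ChIP and input DNA of PC-3M-luc cells were sequenced, 1 library each. Per the labels' protocols, reads were mapped to hg19 with bowtie 2, and the submitters' processing notes name MACS 1.41, Bowtie2 and the builds hg19 and mm10; mm10 was not used. The deposited list holds coordinates and a score per peak, set by the authors' peak caller and read here from the values as -10 × log10 p, which no label states. The sources used here give no settings, duplicate handling or depth. No column of another sample was present (0 columns).

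Peaks were placed by midpoint on GENCODE 44 (mapped to GRCh37), with exons of all transcripts of coding genes and the start sites of coding transcripts. Classes came from the canonical transcript, by tag for 19881 genes and by longest coding sequence for 282. A midpoint in exons of several genes went to 1 gene. Densities have exact Poisson intervals, shares exact binomial ones, medians order-statistic ones and differences of shares Newcombe ones. Matched ratios set the exonic count over the count that intronic rates give in strata cut at 1, 2, 5, 10 and 50 kb from a start site and at 40, 50, 60 and 70% GC, and their intervals cover the exonic count alone. Motif and GC windows were 200 bp.

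Named peaks were the 6 highest in score per exon class (also with edges over 1 kb away, added later), the 5 genes with most peaks, the 3 widest and narrowest, 3 on each side of the 1 kb limit, and up to 3 genes per list; other list members, small RNA genes and sequences so marked were named after their values were seen. Members and gene lists were chosen with earlier results of these data known. Some peaks that these rules name, and 1 sequence, are not reported here. The code was tested on simulated data. Work was done in Python 3.11.15 with pysam 0.24.0, numba 0.67.0, scipy 1.17.1, pandas 2.3.3, numpy 2.4.6 and matplotlib 3.10.9.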

Additional observations from a re-analysis of the deposited data

How the results depend on the processing

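No paired analysis was possible because the LSD1 arm and the input arm hold 1 library each. Without a second library, values carry counting error only, and depth limits which peaks were called, by an amount that is unknown. Of 310 recomputed values, 77 of the main results moved past their counting interval (for counts, past 1.5 times) and 66 did not. Among single classes, motifs and lists 66 moved. Ratios whose intervals took in 1 crossed it: past over before the end in genes without a promoter peak, 0.879, was 1.02 under F, and first exons over introns, 0.926, was 1.83 (C), 6.69 (D, from 1 peak), 1.22 (F), 1.3 (G), 1.2 (H) and 1.06 (I). Below, the alternatives are those of start sites of all transcripts of coding genes (A), start sites of all annotated genes (B), a limit of 2 kb (C) or 5 kb (D), canonical exons only (E), peak edges in place of midpoints (F), a score of at least 100 (G), peaks at or above the median score (H), and no peaks over a coding start site (I, added after seeing the data). The cause of the shifts was not tested. D, G and H also leave smaller sets of peaks, and the part of set size was not tested either.

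The number of exonic peaks was 1132 under D, 1155 under G and 695 under H. Their share of all peaks was 7.48% (A), 6.85% (B), 8.6% (C), 5.63% (D), 7.44% (E), 18.5% (F, since most promoter peaks leave the total), 8.23% (G), 6.91% (H) and 18.5% (I). The share in last exons was 65.4% (A), 65% (B), 55.5% (C), 59.2% (D), 71.1% (E), 54.9% (F), 56.7% (G) and 58.7% (H). The matched ratio of exon to intron was 2.88 (A), 2.9 (B), 2.83 (C), 3.07 (D), 2.5 (E), 3.04 (G) and 3.36 (H), and that of last exons 4.26 (A), 4.31 (B), 4.18 (C), 4.68 (D), 3.66 (E), 4.98 (G) and 5.88 (H). The share in 3′UTR was 56.8% (A), 56.3% (B), 48.2% (C), 51.9% (D), 61.3% (E), 48.1% (F), 49.8% (G) and 50.4% (H), and that in coding sequence 25.9% (A), 26.2% (B), 26.3% (C), 24.6% (D), 38.3% (E) and 26% (F).

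Median width was 1633 bp (C), 1562 bp (D), 1526 bp (F), 2625 bp (G), 3774 bp (H) and 1550 bp (I), and median score 109 (C), 104 (D), 102 (F), 276 (G), 576 (H) and 104 (I). Genes with an exonic peak had a promoter peak in 74.7% (B), 76.1% (C), 77.8% (D), 77.9% (F), 68.5% (G), 63.2% (H) and 77.4% (I). Median GC content was 54.5% (A), 54% (B), 54.5% (D) and 57% (H). In the first 1000 bp past gene ends, the ratio of genes with a promoter peak to those without, 4.07, was 5.13 under F. AP-1 was in 12.1% of exonic windows of 500 bp, with a difference from introns of -12 points, and the difference was -3.67 points under G. List entries with an exonic peak, a gene on more than one list counting for each, numbered 132, 79 under G and 284 when any base of a peak counted.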

Other observations

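Exonic peaks had close neighbours more often than intronic ones. Another peak lay within 1 kb of 888 of 2022 exonic peaks (43.9%, interval 41.7 to 46.1%) and of 1345 of 3971 intronic peaks (33.9%), a difference of 10 percentage points (7.43 to 12.7), and the median gap to the nearest peak was 1392 bp at exonic, 2717 bp at intronic and 19687 bp at promoter peaks. In EIF5, a peak of 10081 bp with a score of 3100 over the start of the gene was followed after a gap of 48 bp by the last-exon peak of 4271 bp with a score of 1641.29. Near-adjoining peaks were counted as the authors called them. In score, the share of exonic peaks was 14.4% in the lowest of 4 equal groups of all peaks and 7.22% in the highest, and within those exonic peaks last exons made up 46.6% (42.9 to 50.3%) and 57.3% (52 to 62.4%).

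Exons of all classes together held more midpoints per Mb than introns in each range of distance from coding start sites. GC content was not matched in these values. At 1000 to 2000 bp exons held 44.1 midpoints per Mb (39.2 to 49.5) and introns 13.3 (12.2 to 14.5), and beyond 50000 bp they held 4.02 (3.02 to 5.24) and 0.749 (0.669 to 0.837). Last exons held 66.1 and 5.98 per Mb at those distances. Internal exons held 42.3 and 0.878 per Mb; beyond 50000 bp they had 3 peaks, with an interval of 0.181 to 2.56 that took in the intronic value.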
